A study of Mus musculus with 4 samples.

Results

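Foxp3 cells of the small intestine lamina propria that held Il10 transcripts were compared with Foxp3 cells in which none was counted. The data are single-cell transcript counts (10x Genomics 5′ libraries, in which each molecule carries a unique molecular identifier, UMI) of CD4 T cells of 4 libraries, labelled SI-WT-1 to SI-WT-4 and here called libraries 1 to 4. All came from wildtype C57Bl/6 mice and formed 1 group. No treatment and no age is given in the sources used here. Living CD45+CD3+CD4+ cells had been sorted after Peyer's patches were taken out and the tissue was digested with collagenase. The labels do not tie each library to exactly 1 mouse. With library as a block, p-values rest on how the difference between the sides varied from library to library. That variation may be partly technical. The test also moderates the spread of each gene with that of other genes, so a p-value can be small although 1 library goes the other way.

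Every cell of at least 2000 UMIs was thinned at random to 2000, so that depth could not decide its side. A cell with at least 1 Foxp3 UMI among those 2000 counted as a Foxp3 cell, which gave 1030 cells out of 22534. At least 1 thinned Il10 UMI put 266 of them on the Il10-positive side (83, 94, 67 and 22 in libraries 1 to 4), and the other 764 (191, 228, 215 and 130) formed the Il10-negative side. Because measured Foxp3 and Il10 chose the cells, the levels of these genes are descriptions and were not tested. The untouched, full UMIs of the cells of each library and side were then summed, and levels below are UMIs per 1000000 of such a sum (CPM).

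Regulatory T (Treg) cells, defined by the transcription factor Foxp3, restrain other immune cells, and the gut holds many of them because it faces food and microbes. Interleukin 10, encoded by Il10, is a secreted cytokine through which intestinal Treg cells quiet macrophages and effector T cells. Many gut Treg cells carry the factors Helios (Ikzf2) and GATA3, and some arise in response to the microbiota. The transcription factors c-Maf and Blimp-1 (Prdm1) are known to promote Il10 transcription.

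The markers of the label were present on both sides. Foxp3 (chrX:7573644-7595245, mm10) stood at 546 ± 41.5 CPM (SD, n = 4 libraries) on the positive and 494 ± 53.9 CPM on the negative side. Il10 (chr1:131019845-131024974, mm10) stood at 1015, 1081, 1095 and 1226 CPM on the positive side of libraries 1 to 4, and at 36.5, 50.8, 64.5 and 51.1 CPM on the negative side, where every remaining UMI lay outside the thinned ones. Just inside the gate lay 121 cells with 1 thinned Il10 UMI, 49 had 2, and 96 had 3 or more, with 15 in the highest cell. In the UMIs that thinning left out, which the gate did not read, Il10 was again found in 71.1% ± 5.75 of positive cells, in 12.3% ± 1.93 of negative Foxp3 cells and in 2.18% ± 0.125 of Foxp3-negative cells without thinned Il10. Some cells of the negative side therefore held Il10 transcripts that the thinned depth missed.

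The sides were close in quality. Median depth was 4316 UMIs per cell on the positive and 4192 on the negative side, with 1805 and 1764 genes and 2.04% and 2.10% mitochondrial UMIs. Fewer positive cells were marked as possible doublets by Scrublet, 2.36% ± 2.60 against 8.70% ± 1.38. With marked cells removed, 23 genes were called higher and 13 lower in the comparison below, 35 of them among its 47 calls. Whole libraries held 5384 to 5910 cells and 23841320 to 28695497 UMIs, and pairs of libraries shared 34 to 55 barcodes. The side sums ran from 104403 UMIs, the 22 positive cells of library 4, to 1199892 UMIs, so values of library 4 on the positive side are the least precise.

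Il10 was found in 30.3%, 29.2%, 23.8% and 14.5% of the Foxp3 cells of libraries 1 to 4, a mean of 24.4% ± 7.23 (SD, n = 4). Library 4 was the lowest, and it also had the fewest Foxp3 cells, 152 against 274 to 322. Among Foxp3-negative CD4 T cells the share was 4.37% ± 0.798, and among those with Ifng, the Th1 cytokine, it was 7.15% ± 1.45. In cells that should lack Il10, the Foxp3-negative cells with Ccr7 (a receptor of naive and recirculating cells), 1.88% ± 1.64 had an Il10 UMI, at a median depth of 4666 UMIs against 4237 in Foxp3 cells. Foxp3 cells with Gzmb had Il10 in 35.0% ± 8.77, those without Gzmb in 17.5% ± 6.15. Foxp3 cells made up 266 of the 1175 cells with Il10 (22.6%, 95% Wilson interval 20.3% to 25.1%, counting error only), so most Il10-holding CD4 T cells had no Foxp3 UMI at this depth.

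**Figure D1:**
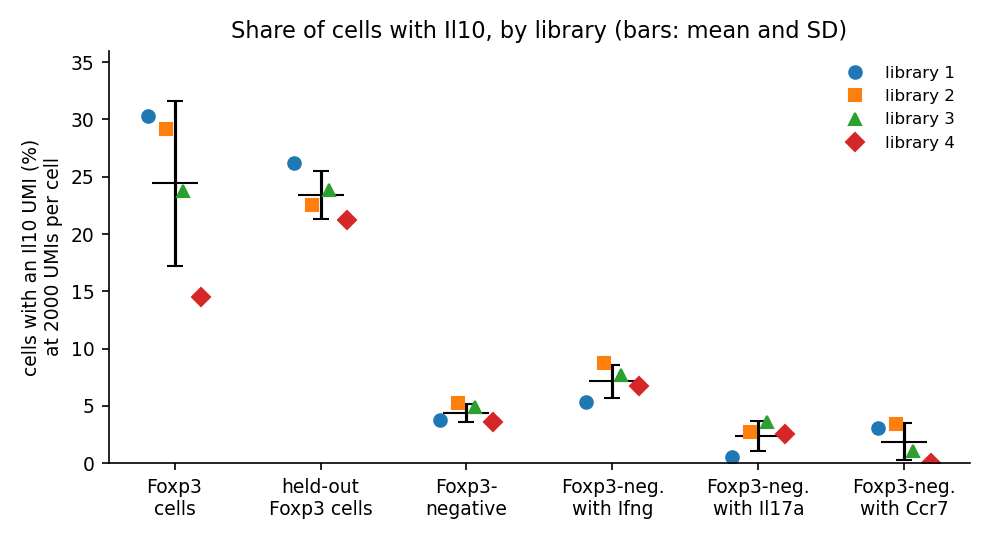
Share of cells with at least 1 Il10 UMI at 2000 UMIs per cell (y axis, percent) in 6 classes of CD4 T cells (x axis). Points are the 4 libraries, the horizontal bar is the mean and the whisker 1 SD; Foxp3 cells average 24.4%, and library 4 is the lowest of them at 14.5%.

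Il10-positive Foxp3 cells had more transcripts of Gzmb, Areg, Ctla4, Fgl2, Lag3 and Furin. They also had more of the receptors Ccr9 and Il12rb2 and of the factor Maf, and fewer of Nr4a2, Hmgb2 and Stmn1. Of all these genes, Gzmb, Areg, Ctla4, Fgl2 and Lag3 were called again in the held-out cells described below, and the others were not. Il12rb2 was higher in 3 of the 4 libraries only. Of 6361 genes tested with edgeR (quasi-likelihood test, library as a block, Benjamini-Hochberg adjusted p under 0.05), 47 were called, which is 0.739% of the genes tested. Of these, 30 were higher (0.472%) and 17 lower (0.267%) on the positive side. The median log2 fold change of all genes tested was −0.04. Which cells fall on a side depends on the random thinning, and 3 other draws gave 128, 51 and 63 calls. Of the 47 genes, 19 were called in all 3 other draws, 12 in 2, 9 in 1 and 7 in none. Leaving out library 1 gave 16 higher and 4 lower calls, and leaving out library 4 gave 47 and 26.

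**Figure D2:**
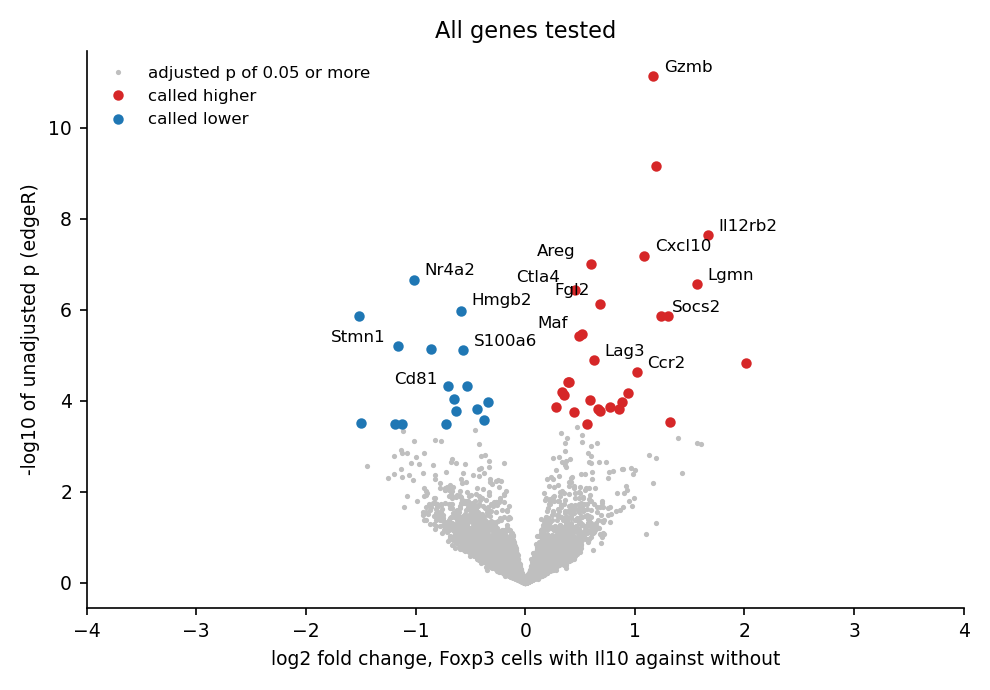
Log2 fold change of Il10-positive against Il10-negative Foxp3 cells (x axis) and −log10 of the unadjusted edgeR p (y axis) for the 6361 genes tested. Red marks the 30 genes called higher and blue the 17 called lower; Gzmb is the highest point, at a log2 fold change of 1.17.

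Several genes of the list of suppressive mediators rose. Of 18 members, 15 passed the filter on low counts, 6 were called higher and 0 lower, and their median log2 fold change was 0.45. Over all 6361 genes tested, 0.472% were called higher and 0.267% lower, with a median of −0.04. At these shares the lists here and below would hold few or no calls, so a member not called says little. The list was chosen with earlier results of these data known, so its count is a description.

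Gzmb, the serine protease granzyme B with which cytotoxic and some regulatory T cells kill targets, stood at 2486, 2418, 1915 and 4540 CPM in positive cells of libraries 1 to 4 and at 1194, 1199, 1079 and 1181 CPM in negative cells. The sides did not overlap, and library 4 was far above the others on the positive side. The log2 fold change was 1.17 ± 0.10 (SE), with an edgeR adjusted p of 4.7e-08 and a higher level in 4 of 4 libraries. In library 4 the level came from 474 UMIs in 16 of 22 cells, 88 of them in the highest cell. It was also visible as a share of cells: 57.2% ± 6.25 of positive and 33.8% ± 3.06 of negative cells had a Gzmb UMI at 2000 UMIs. Of the 8 tested genes of granzymes and killing, no other was called, where 0.739% of all genes tested were called. Gzma (granzyme A) was at 3099 ± 1649 against 2499 ± 900 CPM, with a wide spread between libraries, and Nkg7 (a granule membrane protein) at 440 ± 66.1 against 434 ± 68.6 CPM.

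Gzmb lies at chr14:56258838-56262260 on the minus strand (mm10). The 250 bases before its start in RefSeq are shown because Gzmb had the smallest p of all genes tested (GRCm38.p6, chr14:56262335-56262584, minus strand, 5′ to 3′). That start lies upstream of the gene interval given above, which is from GENCODE. Capitals mark the letters TGANTCA, the binding motif of AP-1, the activation-induced Fos and Jun dimer:
Gzmb: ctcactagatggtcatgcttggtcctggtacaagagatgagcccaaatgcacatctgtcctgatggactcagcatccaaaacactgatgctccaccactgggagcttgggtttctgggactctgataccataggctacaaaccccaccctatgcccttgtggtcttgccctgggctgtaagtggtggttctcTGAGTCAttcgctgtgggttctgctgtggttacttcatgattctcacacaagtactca
Both strands were searched, and a gene counted if any of its windows of this length held the letters. TGANTCA was found for 3 of the 21 higher-called genes that the promoter table holds (14.3%: Cxcl10, Fgl2 and Gzmb). It was found for 0 of 11 lower-called genes and for 7.82% of all 27025 genes in that table. The Maf half-site TGCTGAC was found for none of these 32 called genes and for 4.31% of all genes, and the T-box motif AGGTGTGA for none and for 1.3%. The motifs were chosen after the calls were seen, and a match describes letters, not binding.

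Areg encodes amphiregulin, a ligand of the epidermal growth factor receptor that Treg cells release in tissue repair. Its level was 2431, 2156, 2380 and 2375 CPM in positive and 1522, 1834, 1495 and 1185 CPM in negative cells. All positive sums lay above all negative ones, with a log2 fold change of 0.60 ± 0.08 (edgeR adjusted p = 1.3e-04, higher in 4 of 4 libraries).

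Ctla4 encodes the inhibitory receptor that takes CD80 and CD86 away from antigen-presenting cells. It stood at 2595, 2426, 2501 and 2711 CPM in positive and 1862, 1927, 1740 and 1831 CPM in negative cells. The 4 libraries lay close together on each side, and the log2 fold change of 0.45 ± 0.07 (edgeR adjusted p = 3.0e-04, 4 of 4 libraries) was small beside that of Gzmb.

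Lag3, an inhibitory receptor for MHC class II, stood at 271, 234, 231 and 211 CPM against 190, 158, 126 and 131 CPM, a log2 fold change of 0.63 ± 0.12 (edgeR adjusted p = 0.0044, 4 of 4 libraries). Fgl2, a secreted fibrinogen-like mediator of Treg cells, stood at 347, 394, 449 and 479 CPM against 173, 218, 357 and 313 CPM (log2 fold change 0.68 ± 0.11, edgeR adjusted p = 5.2e-04). Its sides overlapped between libraries, but within each library the positive side was higher. Furin, the protease that cleaves pro-TGF-β, stood at 334, 311, 282 and 201 CPM against 120, 284, 196 and 117 CPM (0.67 ± 0.15, edgeR adjusted p = 0.027), again higher in 4 of 4 libraries with overlap between them.

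Other mediators did not pass. Tgfb1, the TGF-β1 gene, was at 338 ± 60.9 against 285 ± 32.9 CPM. Ebi3, a subunit of interleukin 35, was at 119 ± 29.6 against 121 ± 20.6 CPM. Penk, which encodes the opioid precursor proenkephalin, was at 804 ± 316 against 562 ± 321 CPM and varied as much between libraries as between sides (log2 fold change 0.45, edgeR adjusted p = 0.33).

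**Figure D3:**
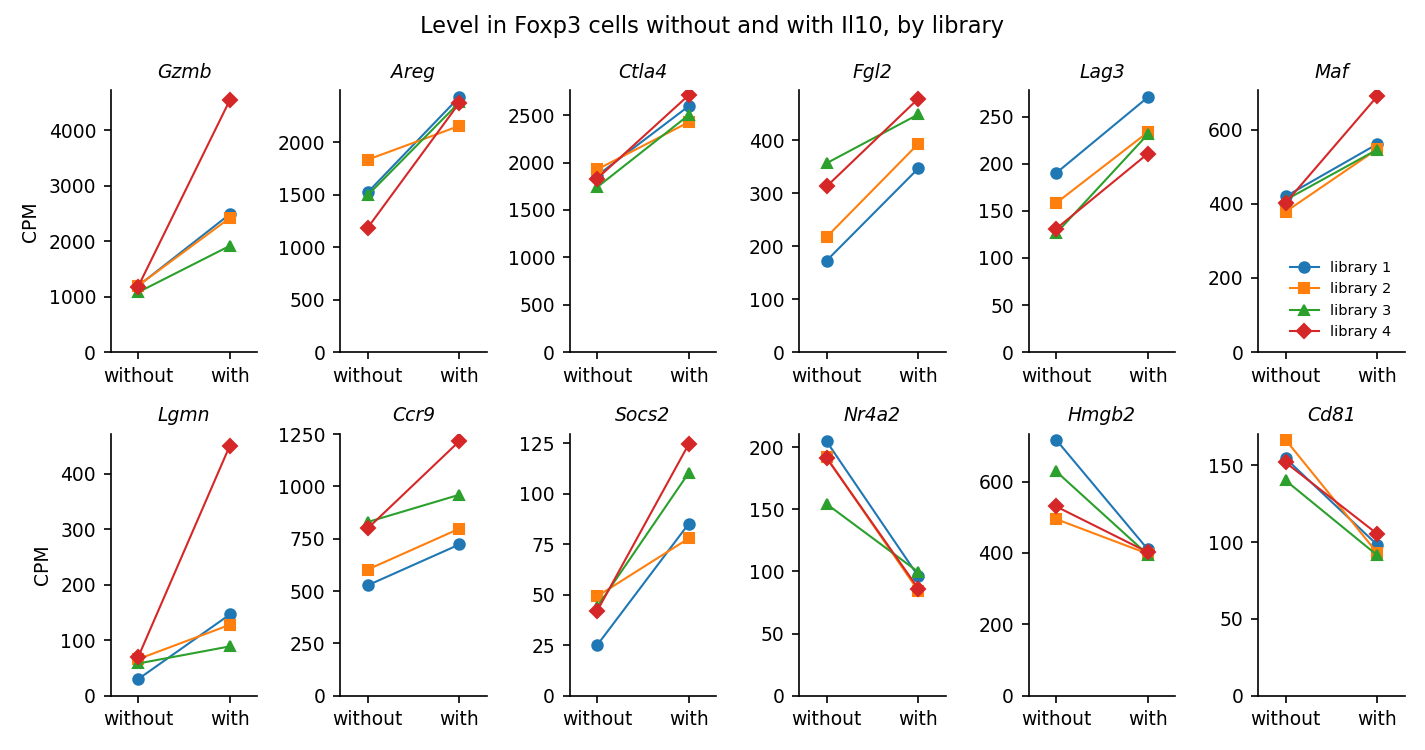
Level in CPM (y axes, from 0) of 12 genes in Foxp3 cells without and with Il10 (x axes), with 1 line per library. Gzmb, Areg, Ctla4, Lag3, Maf, Lgmn and Socs2 are higher on the right in 4 of 4 libraries with no overlap of the sides, while Nr4a2, Hmgb2 and Cd81 are lower there, also with no overlap.

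Most genes that define Treg cells were not called, which also holds for the genes tested as a whole (0.739% called). Of 16 tested members of the Treg identity list, Ctla4 was called higher and no gene lower, with a median log2 fold change of 0.18. Helios (Ikzf2) was at 873 ± 37.0 against 880 ± 67.7 CPM (log2 fold change −0.02 ± 0.08, edgeR adjusted p = 0.97). The growth factor receptor gene Il2ra was at 123 ± 21.4 against 99.3 ± 27.2 CPM and the costimulatory receptor gene Tnfrsf18 at 794 ± 33.2 against 724 ± 62.7 CPM, neither called. Klrg1, which marks activated tissue Treg cells, was at 771 ± 167 against 588 ± 72.3 CPM (0.31 ± 0.09, edgeR adjusted p = 0.14, higher in 4 of 4 libraries). Il1rl1, the interleukin 33 receptor of tissue Treg cells, was at 182 ± 41.1 against 117 ± 23.7 CPM (0.54, edgeR adjusted p = 0.22).

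Of the 21 transcription factor genes tested in the list of factors linked to Il10, 1 was called higher, Maf. Over all genes tested 0.472% were called higher. Maf stood at 561, 547, 546 and 690 CPM in positive and 420, 378, 410 and 402 CPM in negative cells, with no overlap (log2 fold change 0.49 ± 0.08, edgeR adjusted p = 0.0017, 4 of 4 libraries). Library 4 was the highest, from 72 UMIs in 19 of 22 cells. Counted as cells, 63.1% ± 7.36 of positive and 53.5% ± 2.50 of negative Foxp3 cells had a Maf UMI at 2000 UMIs. Prdm1, which encodes Blimp-1, was at 67.5 ± 16.3 against 46.6 ± 1.99 CPM, higher in 4 of 4 libraries but not called (0.56, edgeR adjusted p = 0.32). Gata3 was at 488 ± 121 against 399 ± 81.1 CPM and Ahr, a sensor of dietary and microbial ligands, at 102 ± 5.77 against 85.8 ± 19.2 CPM, neither called.

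Among 25 tested chemokine, homing and retention receptors, 3 were called higher and 0 lower, Ccr9 and Ccr2 among them. The share called higher over all genes tested was 0.472%. Ccr9, the small-intestinal homing receptor for CCL25, stood at 722, 798, 960 and 1216 CPM in positive and 527, 603, 830 and 799 CPM in negative cells (log2 fold change 0.39 ± 0.08, edgeR adjusted p = 0.011, 4 of 4 libraries). Ccr2, the receptor of CCL2, stood at 164, 97.3, 116 and 47.9 CPM against 56.7, 54.2, 53.3 and 64.2 CPM (1.02 ± 0.20, edgeR adjusted p = 0.0073). It was higher in libraries 1 to 3 only, and lower in library 4. The skin and lung homing receptor Ccr4 was at 66.2 ± 28.1 against 98.1 ± 14.6 CPM, lower in 4 of 4 libraries and not called.

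Of 23 tested cytokine receptors, Il12rb2 was the only one called, where 0.739% of all genes tested were called. This signalling chain of the interleukin 12 receptor, a Th1 marker, stood at 168, 128, 153 and 19.2 CPM in positive and 42.2, 33.3, 49.5 and 38.0 CPM in negative cells (1.67 ± 0.21, edgeR adjusted p = 4.9e-05). Libraries 1 to 3 were higher on the positive side, while library 4 had 2 UMIs, both in 1 of its 22 cells. Few cells carried it: 48 of 266 positive cells held its 195 UMIs. Other Th1 markers were not called, with Tbx21 (T-bet) at 27.5 ± 16.1 against 26.8 ± 8.08 CPM and Cxcr3 at 81.1 ± 26.7 against 103 ± 3.98 CPM. Il10rb, a chain of the interleukin 10 receptor, was at 40.4 ± 6.77 against 26.4 ± 5.57 CPM and Il10ra at 119 ± 28.0 against 101 ± 14.3 CPM, neither called.

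Of 16 tested genes of cytokine feedback and survival, Socs2 and Pim1 were called higher, where 0.472% of all genes tested were called higher. Socs2, a STAT5-induced brake on cytokine signalling, stood at 85.1, 77.9, 110 and 125 CPM against 25.0, 49.2, 43.9 and 41.9 CPM, with no overlap (1.24 ± 0.20, edgeR adjusted p = 6.9e-04, 4 of 4 libraries). The cytokine-induced kinase Pim1 was at 1375 ± 213 against 1068 ± 128 CPM (0.35 ± 0.07, edgeR adjusted p = 0.017). Cish, another STAT5 target, was at 333 ± 98.9 against 285 ± 53.9 CPM and not called. Among 16 tested genes induced by the T cell receptor, 1 rose and 1 fell. Nfkbia, the NF-κB inhibitor, was at 2775 ± 213 against 2154 ± 229 CPM (0.34 ± 0.07, edgeR adjusted p = 0.016), higher in 4 of 4 libraries. Nr4a2, an orphan nuclear receptor, stood at 96.0, 84.3, 99.5 and 86.2 CPM in positive and 205, 192, 154 and 191 CPM in negative cells (−1.01 ± 0.15, edgeR adjusted p = 2.4e-04, lower in 4 of 4). Its relative Nr4a1, at 822 ± 91.4 against 688 ± 69.0 CPM, was higher in 4 of 4 libraries and not called. Of 14 tested dissociation stress genes, Gadd45b was called higher (1351 ± 177 against 1020 ± 167 CPM, 0.40 ± 0.08, edgeR adjusted p = 0.011), and 9 of the 14 had values below 0.

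Lgmn, which encodes the lysosomal protease legumain, stood at 146, 128, 88.8 and 450 CPM in positive and 29.8, 65.8, 57.9 and 69.4 CPM in negative cells (1.57 ± 0.23, edgeR adjusted p = 2.5e-04). The sides did not overlap, and the library 4 value rested on 47 UMIs in 9 of 22 cells. Cxcl10, the interferon-induced ligand of CXCR3, was called at 249, 433, 366 and 402 CPM against 188, 208, 137 and 93.0 CPM (1.09 ± 0.15, edgeR adjusted p = 1.0e-04). A single cell held 93 of its 136 UMIs on the positive side of library 3, and 49 of 200 came from a single cell in library 2. Cxcl10 was called in 0 of the 3 other thinning draws, and in 1 of them its log2 fold change was −0.15. The called genes Kctd12 (an auxiliary subunit of GABA-B receptors), Ipmk (an inositol phosphate kinase), Ky (a peptidase known from muscle) and Nckap5 were higher by log2 fold changes of 0.86, 0.69, 0.77 and 0.94, each in 4 of 4 libraries, with edgeR adjusted p between 0.016 and 0.028.

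The genes called lower on the positive side included Hmgb2, Stmn1, Birc5 and Tuba1b, while the division marker Mki67 was not called (32.1 ± 21.4 against 39.8 ± 11.4 CPM, −0.21, edgeR adjusted p = 0.90). Hmgb2, a chromatin protein abundant in cycling cells, stood at 410, 398, 395 and 402 CPM in positive and 717, 495, 629 and 530 CPM in negative cells, with no overlap (−0.58 ± 0.09, edgeR adjusted p = 6.8e-04). Stmn1 (the tubulin-binding stathmin) stood at 50.2, 23.8, 53.8 and 28.7 CPM against 120, 68.3, 92.5 and 65.5 CPM (−1.16 ± 0.21, edgeR adjusted p = 0.0025). These UMIs came from few cells, 11 of 266 positive and 50 of 764 negative ones, and 22 of the 57 positive UMIs lay in 1 cell. Birc5, the mitotic survival factor survivin, was at 9.21 ± 6.23 against 33.0 ± 9.56 CPM from 4 and 27 cells (−1.50 ± 0.36, edgeR adjusted p = 0.044). The 6 cycling markers summed to 47.9 to 190 CPM on the positive and 166 to 318 CPM on the negative side. All 5 tested markers had negative log2 fold changes, with 2 called. Il10 was found in 25.3% ± 13.0 of Foxp3 cells with Mki67 and in 24.3% ± 6.95 of those without. Only 52 cells had Mki67, as few as 8 in a library, at a median depth of 6936 UMIs against 4192 in those without. For Stmn1 the shares were 15.3% ± 12.1 with (31 cells, as few as 2 in a library) and 24.65% ± 7.34 without. Stmn1, Birc5 and Tuba1b were each called in 1 of the 3 other thinning draws and Hmgb2 in 2, and none of these 4 genes was called in the held-out cells described below. The part of cycling cells in the lower levels of Hmgb2 and Tuba1b (α-tubulin, −0.65 ± 0.14, edgeR adjusted p = 0.020) was not tested.

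Cd81, a membrane tetraspanin, stood at 98.2, 93.0, 91.4 and 105 CPM in positive and 155, 167, 140 and 152 CPM in negative cells, with no overlap (−0.70 ± 0.14, edgeR adjusted p = 0.013), but was called in 0 of the 3 other thinning draws. S100a6, a calcium-binding protein, was at 313 ± 38.1 against 436 ± 53.3 CPM (−0.57 ± 0.10, edgeR adjusted p = 0.0028), and Ms4a4b, a membrane protein of T cells, at 291 ± 135 against 490 ± 30.9 CPM (−0.63 ± 0.14, edgeR adjusted p = 0.028). The remaining named genes were Dusp14 (a phosphatase, −1.12), Dtx1 (deltex, of the Notch pathway, −0.72), Mif (a cytokine, −0.44) and Tagln2 (an actin-binding protein, −0.37), with edgeR adjusted p of 0.027 to 0.044, each lower in 4 of 4 libraries. For Dusp14, 59 of the 223 UMIs on the negative side lay in 1 cell. T cell receptor variable segments were called in both directions (Trav9-4 and Trav4-3 higher, Trbv13-2, Trbv20 and Trav7-4 lower). None of the 3 lower segments was called in another draw, and receptor clones were not analysed here.

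Several programmes gave no call with edgeR at an adjusted p under 0.05. Over all 6361 genes tested 0.739% were called, and 531 had an unadjusted p under 0.05. At that share a list of this size would hold few or no calls, so 0 calls says little about a programme. Among 15 tested genes of glycolysis and 17 of oxidative phosphorylation, 0 were called, with 2 and 1 at an unadjusted p under 0.05 and median log2 fold changes of −0.06 and −0.07. Of 12 tested sterol and lipid synthesis genes 0 were called, 10 had positive values and the median was 0.24. The 80 ribosomal protein genes had a median of −0.07, 75 of them below 0 and 0 called (8 at an unadjusted p under 0.05). Among 12 tested genes of naive and memory cells 0 were called (5 at an unadjusted p under 0.05). There, Tcf7, the stem-like memory factor TCF-1, was at 16.4 ± 11.1 against 46.2 ± 15.4 CPM, lower in 4 of 4 libraries (−1.13, edgeR adjusted p = 0.12).

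Effector cytokines were mostly too sparse to test. Of 20, only 6 passed the filter and 0 were called (2 at an unadjusted p under 0.05), where 0.739% of all genes tested were called. Ifng was at 94.5 ± 51.1 against 81.5 ± 48.5 CPM and Il4 at 46.7 ± 44.6 against 21.1 ± 19.2 CPM. Il17a, not tested, was at 7.04 ± 10.2 against 23.5 ± 21.1 CPM and listed at a lower level on the positive side in 4 of 4 libraries.

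Markers of other cells were low on both sides. B cell markers summed to 28.7 to 51.9 CPM on the positive and 40.3 to 60.7 CPM on the negative side, with Pax5 and Ms4a1 at 0 on both. Of the epithelial markers, Lyz1, Reg3g and Defa24 were at 0, and the summed 121 to 142 against 94.1 to 115 CPM was mostly Epcam, which stood at 120 against 98.6 CPM. The 7 myeloid markers summed to 234 to 345 against 202 to 249 CPM, mostly Cst3 at 237 against 213 CPM. Library 4 stood out on the positive side. Lyz2 was at 21.8, 0, 0 and 28.7 CPM in positive and 0, 5, 0.93 and 3.93 CPM in negative cells of libraries 1 to 4. Fcer1g was at 6.55, 2.16, 2.69 and 28.7 against 6.72, 1.67, 3.74 and 3.93 CPM. Trdc, a gamma-delta T cell marker, was at 0, 0, 0 and 76.6 against 0, 0, 0.93 and 0 CPM. Erythroid genes were at 0 on the positive side. Treg markers summed to 6341 to 7004 CPM on the positive and 5278 to 5795 CPM on the negative side, against 1405 to 1882 CPM in Foxp3-negative cells without Il10. The Th2 markers, which include Gata3 and Il1rl1, summed to 898 to 1188 against 660 to 860 CPM. The part of any of these in the called genes was not tested.

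Levels were also read by the amount of Il10. In cells with 0, 1 and at least 2 thinned Il10 UMIs, Socs2 averaged 40.0, 72.3 and 121 CPM, Lag3 151, 209 and 255 CPM, and Ky 57.9, 76.1 and 115 CPM. The means rose in this order for 10 of the 12 higher genes chosen by fold change, all but Gzmb (1163, 2917 and 2715 CPM) and Cxcl10. Of the 12 lower genes, 8 fell in this order, among them Ms4a4b (490, 348 and 243 CPM). The cells at 0 UMIs are those of the main comparison, so these orders are descriptions.

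A second set of cells of the same libraries was not used by the gate: 674 cells with no Foxp3 among their thinned UMIs but at least 1 in the rest. In these held-out Foxp3 cells Il10 was found in 26.2%, 22.5%, 23.8% and 21.2% (mean 23.4% ± 2.11), at a median depth of 6590 UMIs. Of 6050 genes tested there with edgeR, 27 were called (0.446%), 20 higher (0.331%) and 7 lower (0.116%). Of the 47 genes, 46 could be tested in the held-out cells, 44 had the same direction (95.7%) and 14 were called again. Over all genes tested in both sets, 58.9% had the same direction. Of the higher genes, 13 of 29 tested were called again, and of the 17 lower genes 1 was.

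In held-out cells Socs2 was at 84.1 ± 29.3 against 27.5 ± 6.34 CPM (log2 fold change 1.55, edgeR adjusted p = 0.0016) and Lag3 at 242 ± 55.7 against 114 ± 30.2 CPM (1.04). Gzmb was at 2058 ± 587 against 1133 ± 210 CPM (0.81, edgeR adjusted p = 0.012) and Areg at 1764 ± 182 against 1061 ± 302 CPM (0.75). Ctla4, Fgl2, Ccr2, Lgmn, Nckap5 and Ipmk were also called there. Il12rb2 was at 158 ± 67.6 against 113 ± 21.9 CPM (0.41, edgeR adjusted p = 0.51) and Cxcl10 at 193 ± 83.7 against 165 ± 81.3 CPM, so these differences of the gated cells were smaller in the held-out cells and not called. Maf (0.36, edgeR adjusted p = 0.26), Ccr9 (0.42, edgeR adjusted p = 0.069), Furin (0.36, edgeR adjusted p = 0.49) and Nr4a2 (−0.59, edgeR adjusted p = 0.18) kept their direction there and were not called. Nkg7 was called lower in held-out cells (434 ± 98.9 against 594 ± 66.9 CPM, −0.49, edgeR adjusted p = 0.034). The exceptions in direction were Trbv20 (0.63) and Trav4-3 (−0.73). Klrg1, which missed the threshold in the gated cells, was called in the held-out ones (725 ± 250 against 388 ± 77.0 CPM, 0.85, edgeR adjusted p = 0.012).

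The sides of the held-out cells differed in depth and in doublet marks. Median depth was 5628 UMIs with and 6698 without Il10, and 9.98% ± 1.21 against 16.4% ± 3.93 of the cells were marked as possible doublets. Among the 7 lower calls were the plasma cell genes Igkc (an antibody light chain, −3.40) and Jchain (the antibody joining chain, −3.33), whose UMIs lay in few cells. Of 1009 Igkc UMIs on the negative side, 604 came from a single cell, as did 1130 of 2042 Jchain UMIs, and library 4 was the highest for both. Their part in the other held-out calls was not tested. With marked doublets removed, 18 held-out genes were called, and 10 of the 14 genes called in both sets were still called there.

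**Figure D4:**
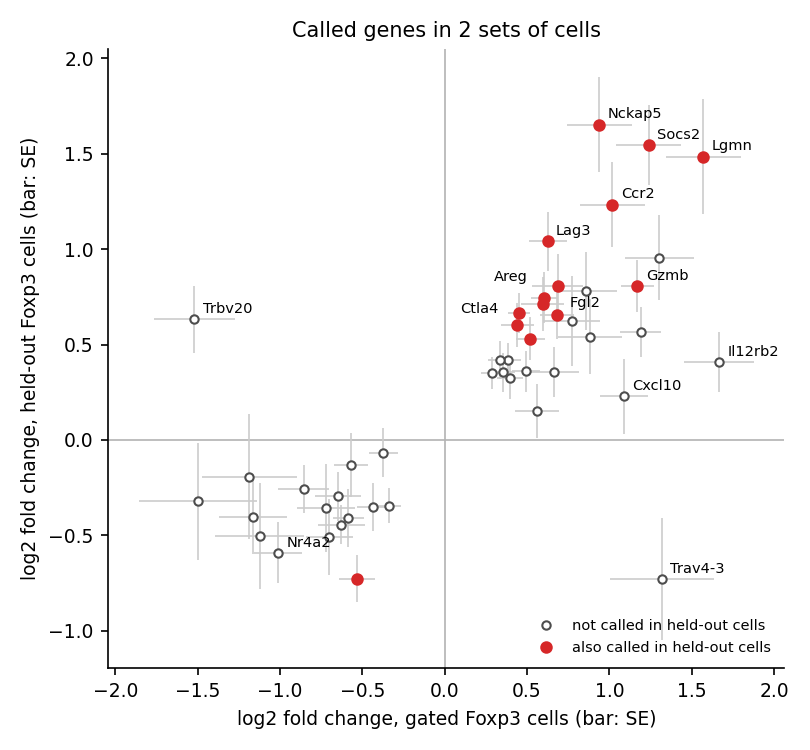
Log2 fold change of the called genes in gated (x axis) and held-out (y axis) Foxp3 cells, Il10-positive against negative, with SE bars, for the 46 genes tested in both. Filled red points are the 14 genes called in both; Trbv20 and Trav4-3 are the genes with opposite signs.

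The same split by Il10 was made in Foxp3-negative CD4 T cells, 909 with and 19837 without Il10, to ask which differences were tied to Foxp3 cells. There 1515 of 11226 genes were called with edgeR (13.5%), 754 higher (6.72%) and 761 lower (6.78%), over many more cells than in the Foxp3 comparison. The difference of the differences, tested in 1 fit over 16 sums, was called for 147 of 8337 genes (1.76%): 129 were more negative (1.55%) and 18 more positive (0.216%) in Foxp3 cells. Plasma cell markers summed to 99.2 to 820 CPM in Foxp3-negative cells without Il10, against 0 to 30.3 CPM on the positive and 10.6 to 20 CPM on the negative Foxp3 side. Jchain (5.18, edgeR adjusted p = 0.0040) and the myeloid marker Lyz2 (7.31, edgeR adjusted p = 0.0056) were among the 18. The part of other cell types in the 147 calls was not tested. The 6 smallest p-values belonged to genes of the Treg identity list or to Tigit. Tnfrsf4, the costimulatory receptor OX40, had a log2 fold change of 0.24 in Foxp3 and 1.95 in Foxp3-negative cells (difference −1.70 ± 0.08, edgeR adjusted p = 7.2e-13). Klrg1 had 0.31 and 3.07 (difference −2.78 ± 0.16, edgeR adjusted p = 2.5e-11) and Ikzf2 −0.02 and 1.52 (difference −1.54 ± 0.09, edgeR adjusted p = 3.6e-11). The inhibitory receptor gene Tigit, the actin-capping gene Capg and the activation marker gene Cd83 had differences of −1.54, −1.61 and −2.23.

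The levels in the 4 classes were as follows. Ikzf2 averaged 478 ± 49.5 CPM in Foxp3-negative cells with Il10, 164 ± 14.8 CPM in those without, and 873 and 880 CPM on the sides of the Foxp3 cells. Klrg1 averaged 286 ± 87.0, 33.7 ± 11.2, 771 and 588 CPM in the same order. Foxp3 itself averaged 56.7 ± 7.11 CPM in Foxp3-negative cells with Il10 and 10.1 ± 1.46 CPM in those without, all from UMIs that thinning had left out. Cells with Foxp3 UMIs missed by thinning were therefore among the Foxp3-negative cells, so the test was repeated without any cell that had a Foxp3 UMI. Then 126 genes were called, and the differences for Tnfrsf4, Klrg1, Tigit, Ikzf2, Capg and Cd83 were −1.69, −2.87, −1.58, −1.40, −1.36 and −2.36. Treg cells with no Foxp3 UMI counted at all cannot be told apart from other cells in that set.

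Of the genes called within Foxp3 cells, 15 also had a called difference. Areg (0.60 in Foxp3 and 2.25 in Foxp3-negative cells), Lag3 (0.63 and 2.23), Ctla4 (0.45 and 1.25), Fgl2 (0.68 and 1.38) and Maf (0.49 and 1.04) rose in both, less in Foxp3 cells on the log2 scale. Their levels without Il10 were higher in Foxp3 cells, so the order need not hold in CPM. Areg went from 1509 to 2336 CPM in Foxp3 and from 176 to 839 CPM in Foxp3-negative cells. Ctla4 went from 1840 to 2558 CPM and from 935 to 2266 CPM. Cd81 had opposite signs, −0.70 in Foxp3 and 1.26 in Foxp3-negative cells. Without any cell that had a Foxp3 UMI on the negative side, 13 of the 15 differences were still called, Cd81 among them (−1.96). S100a6, at −0.57 and 0.42, was at 0.11 in cells with no Foxp3 UMI (edgeR adjusted p = 0.61), and its difference was then −0.63 (edgeR adjusted p = 0.064). For Fgl2 the difference was then −0.53 (edgeR adjusted p = 0.080). For Gzmb (1.17 and 1.54), Socs2 (1.24 and 1.26), Il12rb2 (1.67 and 1.51) and Nr4a2 (−1.01 and −0.80) no difference was called. For Gzmb the difference was −0.37 ± 0.16 (edgeR adjusted p = 0.37) and for Socs2 0.00 ± 0.24, which does not show that they act alike.

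**Figure D5:**
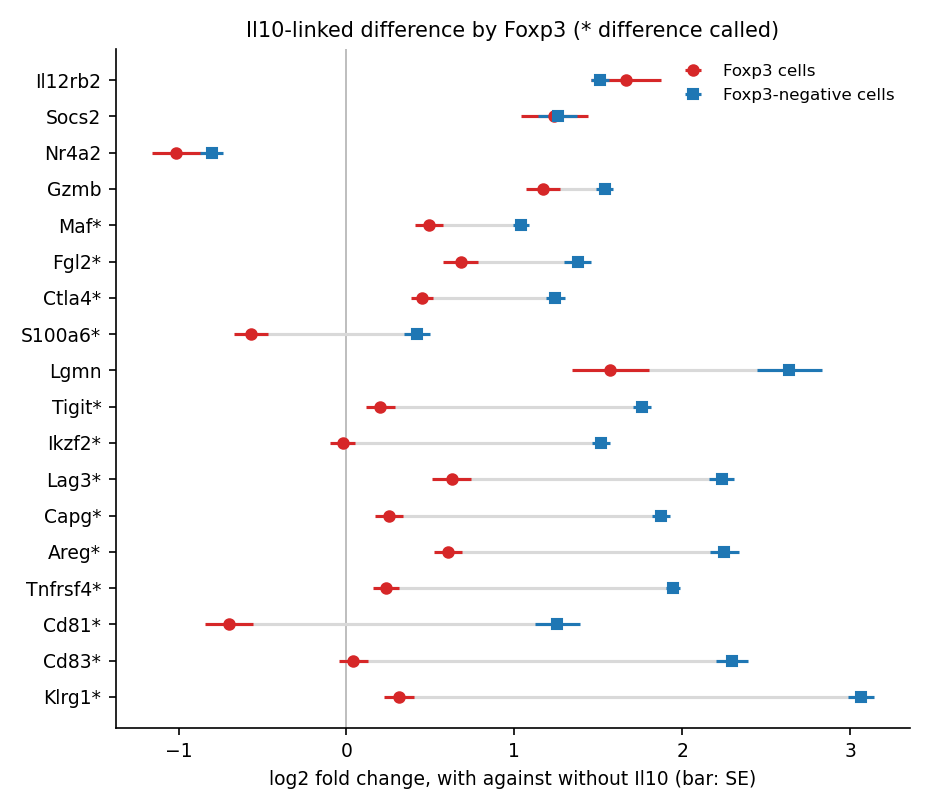
Log2 fold change of cells with against cells without Il10 (x axis, bars are SE) in Foxp3 (red circles) and Foxp3-negative (blue squares) CD4 T cells for 18 genes (y axis). An asterisk marks a called difference; Klrg1, at 0.31 and 3.07, is the widest of the 18 genes drawn, and Cd81 and S100a6 lie on opposite sides of 0, although S100a6 falls from 0.42 to 0.11 in Foxp3-negative cells once those with any Foxp3 UMI are taken out.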

How the data were processed

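The authors deposited a UMI count matrix for each of the 4 libraries, all whole numbers. The submitters' processing notes name Cell Ranger 3.0.2 and the build mm10. Of 22904 barcodes, 22534 were kept, those with 500 genes or more, 1000 UMIs or more and no more than 10% mitochondrial UMIs. Cells were thinned once without replacement to 2000 UMIs (758 shallower cells were left out), and the sides were set from the thinned counts. Full UMIs were summed per library and side. edgeR 4.0.16 was run with TMM scaling, filterByExpr and glmQLFTest, with library as a block because both sides of a pair are cells of the same library. This left 3 residual degrees of freedom (9 in the interaction fit). Benjamini-Hochberg adjustment ran over all genes tested, and Foxp3 and Il10 were not tested. Doublets were scored with Scrublet (scanpy 1.11.5) and kept, except in 1 alternative.

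The rule for named genes took the 12 called genes with the most positive and the 12 with the most negative log2 fold change that moved the same way in 4 of 4 libraries, with at least 20 CPM on 1 side, leaving out predicted, receptor, immunoglobulin, ribosomal and mitochondrial genes. Up to 4 called members of each list, and the 6 interaction calls with the smallest adjusted p, were added. Further called genes and list members outside this rule were named after their values were seen. The members, gene lists and comparisons were chosen with earlier results of these data known. Positions came from GENCODE vM21, which held 31011 of 31053 gene IDs, and promoters from RefSeq GRCm38.p6. On simulated counts for 6361 genes, 156 of 200 genes changed by a log2 fold of 1 were recovered (78%), and 5 unchanged genes were called. The simulated sums used the spread fitted to these data and held no single cells. They therefore do not cover outlying cells or the random thinning. Many called genes had smaller log2 fold changes than the simulated ones. Some results are not reported here.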

Additional observations from a re-analysis of the deposited data

Results flagged for a closer look

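In 72 groups of 4 library values, Dixon's gap test marked 3, where chance gives about 1 in 20. These were Lgmn in Il10-positive Foxp3 cells of library 4, at 450 CPM and far above the other libraries, Maf on the same side of library 4, at 690 CPM, and Gzmb in Il10-negative Foxp3 cells of library 3, at 1079 CPM, below 1181 to 1199 CPM.

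For 18 of 40 genes examined, the difference between cells with and without Il10 itself differed between Foxp3 and Foxp3-negative cells. These were called with the edgeR interaction term at an adjusted p under 0.05. Over all genes tested, 1.76% were called. Tnfrsf4, Klrg1, Tigit, Ikzf2, Capg and Cd83 entered the 40 because their interaction adjusted p was smallest, so their calls were certain in advance. The count of 18 is therefore a description of chosen genes. The log2 difference, Foxp3 minus Foxp3-negative cells, was −2.98 for Nckap5, −2.63 for Ky, −0.69 for Fgl2, −1.59 for Lag3, −2.0 for Cd81, −0.96 for S100a6, −0.80 for Ctla4, −1.63 for Areg and −0.53 for Maf. It was −0.75 for Nfkbia, −0.59 for Gadd45b, −0.88 for Pim1, −1.70 for Tnfrsf4, −2.78 for Klrg1, −1.54 for Tigit, −1.54 for Ikzf2, −1.61 for Capg and −2.23 for Cd83. All 18 were negative, as were 129 of the 147 calls over all genes tested.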

How the results depend on the processing

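The number of calls depended on the setting more than their direction did. Against 30 higher and 17 lower calls, DESeq2 gave 18 and 4 (81.8% higher against 63.8%), no filter on low counts 59 and 40, no replicate block 13 and 5 (72.2% higher), and leaving out 1 library 16 to 47 and 4 to 26. The gate without thinning gave 128 and 38, thinning to 1500 UMIs 19 and 9, thinning to 3000 UMIs 95 and 44, another thinning draw (draw 2) 81 and 47, summing thinned UMIs 14 and 6, and Ikzf2 detection as a term 18 and 9. Lower calls were 10 with 2 companion genes required beside Foxp3 and 10 with at least 2 Il10 UMIs.

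Against 27 held-out calls, no filter gave 92, thinning to 1500 UMIs 66, thinning draw 2 gave 41, draw 3 gave 66, and leaving out 1 library 6 to 25. Without the replicate block edgeR called 0 held-out genes (438 at an unadjusted p under 0.05), and DESeq2 with the block called 18. Against 147 interaction calls, no filter gave 259, no replicate block 86, the gate without thinning 229, and leaving out 1 library 85 to 144. The share of Foxp3 cells with Il10 was 34.4% without thinning and 22.5% to 27.7% with 1 library left out.

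Of 813 values of single named genes under other settings, 604 kept their direction and side of the threshold, 208 lost the call, and 1 reversed: Cxcl10 at −0.15 (edgeR adjusted p = 0.88) in thinning draw 4. Areg, Gzmb, Lgmn, Ctla4 and 1700061F12Rik were among the genes called in every setting in which they were tested. The causes were not tested.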
